A study of Mus musculus with 6 samples.

Results

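The genes described here carry cells from G2 through mitosis: the cyclins and kinases of mitotic entry, the spindle checkpoint, the kinetochore, the chromosomal passenger complex, spindle motors, cytokinesis proteins and 2 chromosome proteins. They were chosen by name, as a list of 34 genes, and 33 of them have a probe set with a single gene symbol among the 18193 genes measured. Ccnb1, the gene of the main mitotic B-type cyclin, is not listed in the probe annotation used and has no value here. Where a gene had several probe sets, the brightest on average (mean log2 signal of the 6 arrays) stood for it.

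The tissue was the region of the node and primitive streak, the midline organiser and ingression zone of the gastrulating mouse embryo, at embryonic day 7.75 to 8 (0 to 2 somites). Embryos were either Wnt3a wild type or Wnt3a null, the latter without function of a secreted Wnt ligand made in the streak, and both genotypes shared a mixed C57BL/6 and 129/Sv background. Each array held amplified RNA of 3 stage-matched embryos of a genotype, and there were 3 arrays per genotype, numbered 1 to 3 as biological replicates in both. The study asked which genes depend on Wnt3a before the mutant embryos look abnormal; the question here is whether the mitotic programme was among them. A deposited signal is a linear, scaled probe set intensity, and because probe sets bind with different strength, a signal ranks no gene's RNA against another's, and the median gene signal (164) serves below only to mark bright and dim probe sets. Both the share of dividing cells and the RNA per cell enter a signal from dissected tissue, and these cannot be told apart.

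As background, transcripts of mitotic genes build up in G2 and are cleared after division, so that in a tissue their level follows how many cells are dividing. In resting and early G1 cells many of these genes are held down through a short promoter element, the cell cycle genes homology region (CHR), which is bound by the DREAM complex, and they are turned on in G2 by B-Myb and FoxM1 together with NF-Y bound at CCAAT boxes. Cells of the mouse epiblast and streak are known to divide very fast.

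The arrays were of like brightness, with median signals from 73.7 to 86.4. Of 14 measured node and primitive streak markers, 9 had a signal at or above that of the median gene, while Chrd, Foxj1, Fgf8, Wnt3 and Msgn1 were dimmer, which by itself does not settle the tissue. Wnt3a itself gave 864.5, 1058 and 996 in wild type and 960.5, 761 and 1009 in null pools, and its probe set need not lie in the part of the gene that the allele alters. Axin2, a feedback gene of Wnt signalling, gave 2602, 2806 and 2472 in wild type and 1291, 1224 and 1289 in null pools, which do not overlap, though the difference of -1.05 on the log2 scale missed the threshold (adjusted p = 0.312, limma). Number 1 stood apart in sex composition: the Y-linked Eif2s3y signal was 4.31 in wild-type pool 1 against 1053 to 1788 elsewhere, and the Xist signal was 7439.7 in wild-type pool 1 and 5047 in null pool 1 against 1871 to 2707 elsewhere.

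The promoters show what most of these genes share. For 28 of the 34 genes a 300-base window, from 250 bases before the annotated start to 50 after it, was found in RefSeq (GRCm38.p6), and it was searched on both strands for the letters of the CHR, TTTGAA, and of the CCAAT box. The CHR letters occurred in 21 of the 28 (75.0%), against 20.2% of all 27025 genes with a window. Within 50 bases of the start they occurred in 19 of 28 (67.9%), against 5.72% of all genes. A CCAAT box occurred in 21 of 28 (75.0%), against 41.1%, and at least 2 copies in 14 of 28 (50.0%), against 13.3%. Both motifs occurred in 18 of 28 (64.3%), against 8.97%, and a match of one shared bases with a match of the other in 1 place. The traits were not particular to the members: of 43 other mitosis genes with a window 51.2% had the CHR letters within 50 bases of the start, 53.5% had both motifs and 48.8% at least 2 CCAAT boxes. Of 35 DNA replication and G1/S genes with a window, 2 (5.71%) had the CHR letters within 50 bases of the start and 21 (60.0%) had a CCAAT box. A match is a run of letters and was not tested as a binding site.

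The windows of 4 members are shown: those with a window that had the smallest p in the comparison of genotypes given further on. Matches to TTTGAA or CCAAT on either strand are in capitals (TTCAAA and ATTGG are the same motifs on the other strand). Ect2, on the minus strand at chr3:27153829-27154128, had 2 TTTGAA and 3 CCAAT. Cenpa, on the plus strand at chr5:30666636-30666935, had 1 TTTGAA just past the start and 2 CCAAT. Ube2c, on the plus strand at chr2:164769679-164769978, had 1 TTTGAA and 6 CCAAT, of which 2 share bases. Cenpe, on the plus strand at chr3:135212313-135212612, had 1 CCAAT and no TTTGAA.
Ect2: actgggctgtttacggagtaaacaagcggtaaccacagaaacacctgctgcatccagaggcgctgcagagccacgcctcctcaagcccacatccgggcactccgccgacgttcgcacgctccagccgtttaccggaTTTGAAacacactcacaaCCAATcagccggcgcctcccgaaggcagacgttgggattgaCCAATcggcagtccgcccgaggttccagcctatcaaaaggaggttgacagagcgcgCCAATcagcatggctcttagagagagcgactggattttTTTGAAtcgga
Cenpa: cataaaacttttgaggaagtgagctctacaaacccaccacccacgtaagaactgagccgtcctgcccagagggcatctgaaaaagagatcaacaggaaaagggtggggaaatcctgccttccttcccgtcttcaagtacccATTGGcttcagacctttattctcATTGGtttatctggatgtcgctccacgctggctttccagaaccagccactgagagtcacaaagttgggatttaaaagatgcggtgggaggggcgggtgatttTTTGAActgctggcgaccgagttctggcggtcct
Ube2c: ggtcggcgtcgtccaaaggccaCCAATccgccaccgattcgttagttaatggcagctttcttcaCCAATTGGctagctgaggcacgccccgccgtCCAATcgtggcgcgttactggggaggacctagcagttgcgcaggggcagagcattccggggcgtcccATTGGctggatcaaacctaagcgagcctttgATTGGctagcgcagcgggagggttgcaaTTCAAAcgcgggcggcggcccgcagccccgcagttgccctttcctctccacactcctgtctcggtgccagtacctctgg
Cenpe: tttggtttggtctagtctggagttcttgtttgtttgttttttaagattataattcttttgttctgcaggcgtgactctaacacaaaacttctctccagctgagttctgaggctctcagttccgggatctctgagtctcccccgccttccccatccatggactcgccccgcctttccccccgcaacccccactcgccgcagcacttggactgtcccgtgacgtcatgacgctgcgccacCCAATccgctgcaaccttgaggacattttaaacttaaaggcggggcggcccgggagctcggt

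**Figure D1:**
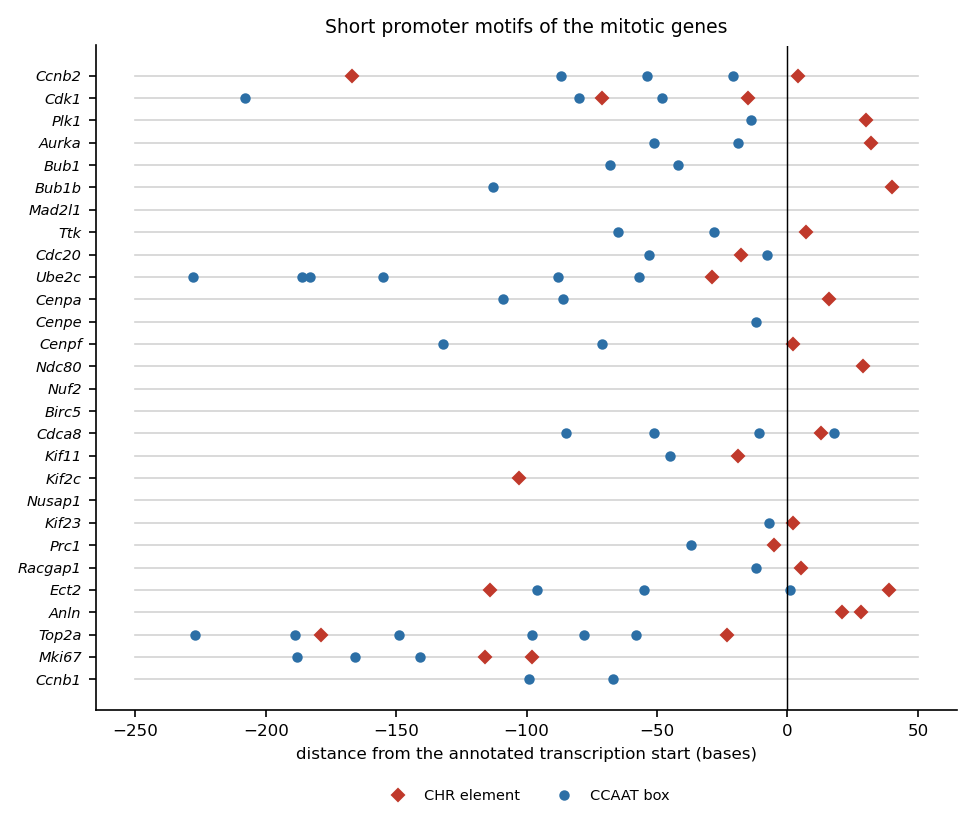
Position of each motif match (x axis, bases from the annotated start, 0) in the 300-base window of the 28 mitotic genes with a RefSeq window; diamonds are CHR letters and circles CCAAT boxes, on either strand. CHR matches gather around the start, in 19 of 28 genes within 50 bases of it. CCAAT boxes lie mostly upstream, as do 250 of the 300 bases of the window.

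No mitotic gene passed the test between Wnt3a null and wild-type pools. Over all 18193 genes limma called 0 lower and 0 higher at an adjusted p under 0.05 (0% in each direction), and each of the 33 members had an adjusted p of 1. At an unadjusted p under 0.05 there were 0 members, against 5.17% of all genes and 1.03% of the 4446 genes at least as bright as the dimmest member. The log2 differences, null minus wild type, ran from -0.27 for Cdc25c to 0.23 for Ect2, that is from 1.21-fold lower to 1.17-fold higher in value. With 33 intervals all holding 0, the data bound the difference more than they locate it: the 95% interval of every member lay within 2-fold either way, and that of 16 members within 1.5-fold. The widest bounds were -0.95 for Aurkb and 0.71 for Kif23. A sign of RNA quality, the Gapdh signal at the 3' end over that at the 5' end, moved with the genotype. It was 2.51, 2.70 and 3.00 in wild type and 2.09, 2.39 and 2.22 in null pools, lower in null at every number and without overlap. The same ratio for beta-actin overlapped between genotypes, at 2.68, 3.69 and 3.23 in wild type and 2.38, 3.83 and 3.13 in null pools. The part of RNA quality in the differences was not tested.

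All 33 genes were bright, with mean log2 signals from 9.89 to 14.02 against a median gene of 7.36. They are set beside those 4446 genes, called equally bright from here on. That set only has a floor at the dimmest member and is not matched to the members' signals, so brightness still enters the contrasts. The median absolute log2 difference was 0.0813 in the members and 0.0977 in those genes. No member differed by more than 0.5, against 1.62% of those genes. By direction, 24 members had lower and 9 had higher means in null pools, with a median of -0.06, while 60.1% of the equally bright genes were lower with a median of -0.03. These counts moved with null pool 1: without that array 11 were lower and 22 higher, with a median of 0.04. Centring each array on its median gene, which moves all genes by -0.10, gave 30 lower and 3 higher with a median of -0.17. With array weights 17 were lower and 16 higher, with a median of -0.01.

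**Figure D2:**
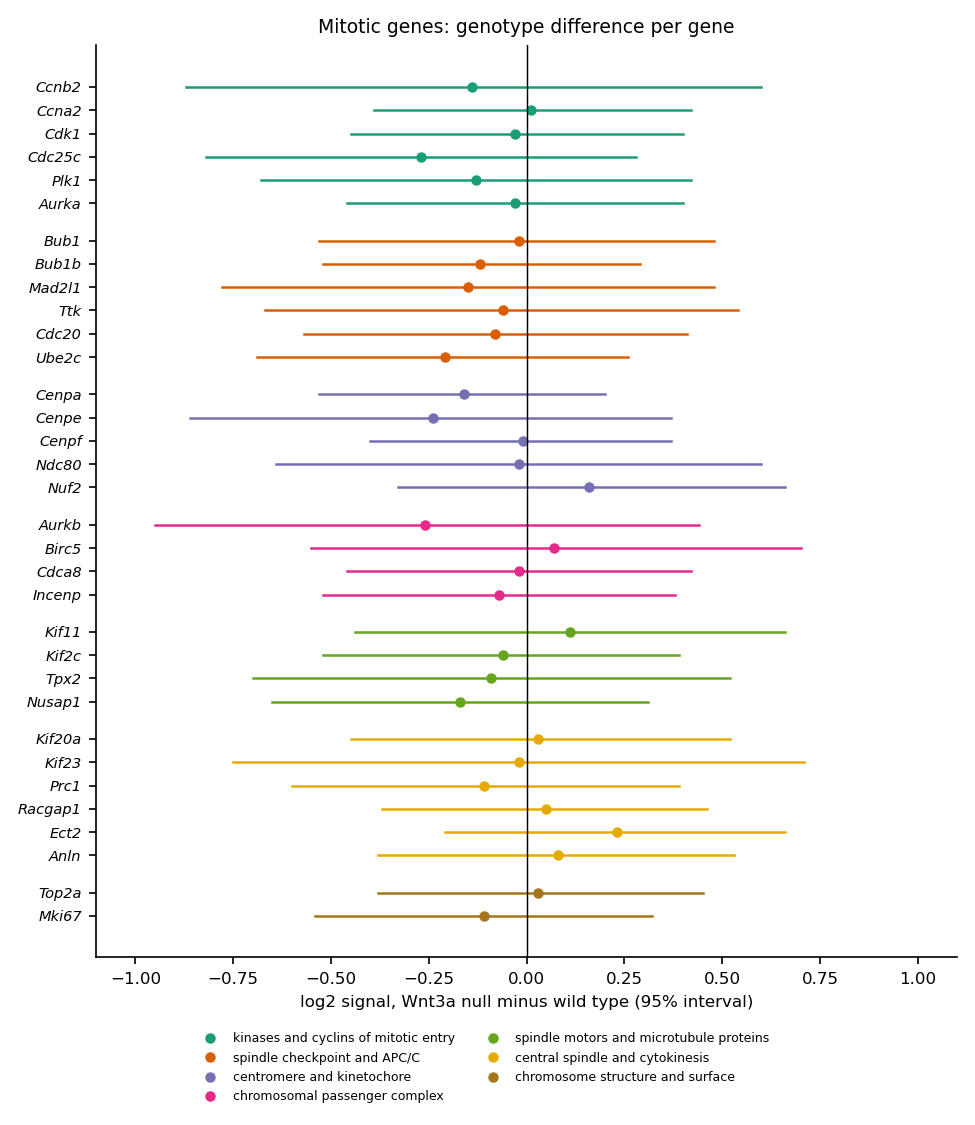
Log2 signal of Wnt3a null minus wild type (x axis) for each of 33 mitotic genes, grouped by role; points are the difference of means over 3 arrays per genotype and lines the 95% interval from limma. Every line crosses 0, and points run from -0.27 to 0.23.

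Of the kinases and cyclins that start mitosis, 5 of 6 measured members were lower in value and 1 higher, with a median log2 difference of -0.08 and 0 passing the test. Cdk1, the kinase that drives entry into mitosis, gave signals of 6213, 6922 and 5455 in wild-type pools 1 to 3 and 5712, 6451 and 6038 in null pools. The groups overlap throughout, and the log2 difference was -0.03 with a 95% interval from -0.45 to 0.40 (0.983-fold). Ccna2, the S and G2 phase cyclin, stood at 4574 ± 408 in wild type and 4609.7 ± 316 in null pools (SD, n = 3 each). Ccnb2, a B-type cyclin, gave 4087 ± 1236 and 3678 ± 834 (SD, n = 3 each), with number 2 the highest in both genotypes.

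Cdc25c, the phosphatase that activates Cdk1, had the lowest difference of all members. Its signals were 1073, 1142 and 1253 in wild type and 750.3, 994 and 1169 in null pools. Each null pool lay under the wild-type pool of its number, by -0.52, -0.20 and -0.10 on the log2 scale, but the groups overlap and the interval ran from -0.82 to 0.28. A further Cdc25c probe set had -0.12. Plk1, a kinase of mitotic entry and spindle assembly, gave 3926, 2969 and 3424 in wild type and 3825, 2595 and 3070.5 in null pools, with a difference of -0.13 (interval -0.68 to 0.42). Here number 1 was the highest and number 2 the lowest in both genotypes, unlike the members in which number 1 was lowest. Aurka, the centrosomal Aurora kinase, differed by -0.03.

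All 6 genes of the spindle checkpoint and the anaphase-promoting complex were lower in value, by -0.02 to -0.21 on the log2 scale, and 0 passed. Cdc20, the activator of that complex and the target of the checkpoint, gave 15602, 19286 and 16411 in wild type and 13448, 17126 and 18104 in null pools. Null pool 3 lay above wild-type pool 3 and the other null pools below their counterparts, so the difference of -0.08 (interval -0.57 to 0.41) has no common sign by number. Ube2c, the ubiquitin-conjugating enzyme of the complex, gave 2981, 4095 and 3222 against 2722, 3092 and 3007. That is -0.21 (interval -0.69 to 0.26), and wild-type pool 2 alone stood well above the rest. The checkpoint genes Bub1 (-0.02), Bub1b (-0.12), Mad2l1 (-0.15) and the checkpoint kinase gene Ttk (-0.06) stayed within that range.

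Of the 5 centromere and kinetochore genes, 4 were lower and 1 higher in value. Cenpa, the histone H3 variant that marks centromeres, was the only member whose groups did not overlap on the chosen probe set: 6087, 5655 and 5524 in wild type and 5090.0, 5179.9 and 5118 in null pools, 5755 ± 294 against 5129 ± 46.0 (SD, n = 3 each). Over all genes 4.56% were separated in this direction and 5.56% in the other, so 1 member of 33 lower (3.03%) and 0 higher were no more than the background. The Cenpa difference was -0.16 (interval -0.53 to 0.20; limma, adjusted p = 1), and 2 dimmer Cenpa probe sets had 0.35 and 0.16. Cenpe, a kinetochore motor, gave 1725, 2468 and 2286 against 1421, 1944 and 2117, lower in null at each number, with -0.24 (interval -0.86 to 0.37). Its other probe set had 0.07. Nuf2, of the Ndc80 complex that binds microtubules, went the other way with 1419.9, 1578 and 1436 against 1501, 1469.7 and 2047, a difference of 0.16 that was 0.01 without null pool 3. Its partner Ndc80 differed by -0.02 and Cenpf, a large kinetochore protein gene, by -0.01.

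The chromosomal passenger complex, which corrects wrong attachments and guides cytokinesis, had 3 members lower and 1 higher in value, with 0 passing. Aurkb, its kinase, gave 3072, 1934 and 1693 in wild type and 1969, 1938 and 1549 in null pools, a difference of -0.26 (interval -0.95 to 0.44). Wild-type pool 1 stood alone, and the other 5 pools overlap. A second Aurkb probe set of almost the same brightness had -0.07. Birc5, the survivin gene, differed by 0.07, Cdca8, the borealin gene, by -0.02 and the scaffold gene Incenp by -0.07. Of the 4 spindle motor and microtubule genes, 3 were lower and 1 higher. Kif11, the motor that pushes spindle poles apart, gave 1341, 1961 and 1479.9 against 1471, 1722 and 1933, a difference of 0.11 (interval -0.44 to 0.66), with 0.08 and 0.11 in its other probe sets. Kif2c, a microtubule-depolymerising kinesin, had -0.06, Tpx2, the activator of Aurora A on the spindle, -0.09 and Nusap1, a microtubule-bundling protein gene, -0.17.

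Genes of the central spindle and cytokinesis were the one role in which more were higher than lower, 4 of 6, with a median of 0.04 and 0 passing. Ect2, the exchange factor that activates RhoA at the division plane, had the highest difference of all members. Its signals were 2694, 2726 and 3041 in wild type and 2868, 3458 and 3614 in null pools. Each null pool exceeded the wild-type pool of its number, by 0.09, 0.34 and 0.25, yet null pool 1 lay below wild-type pool 3, and the difference was 0.23 (interval -0.21 to 0.66). Anln, the anillin scaffold of the contractile ring, gave 3346, 4204 and 4013 against 3622, 4396 and 4147. It too was higher at each number, by 0.05 to 0.11, with a difference of 0.08 (interval -0.38 to 0.53), and number 1 was the lowest in both genotypes. Kif20a and Racgap1 differed by 0.03 and 0.05, and Kif23, a motor of the central spindle, and Prc1 by -0.02 and -0.11.

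The 2 chromosome proteins, both widely used as marks of proliferating cells, lay close to 0. Top2a, the topoisomerase that untangles chromosomes, gave 9667, 8926 and 9754 in wild type and 8709, 9527 and 10886 in null pools, with 0.03 (interval -0.38 to 0.45). Mki67, the Ki-67 gene, gave 9222, 7995 and 9982 against 8426, 7705 and 9061, with -0.11 (interval -0.54 to 0.32). Mki67 was lower in null at each number, by -0.05 to -0.14 on the log2 scale, and its groups overlap.

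**Figure D3:**
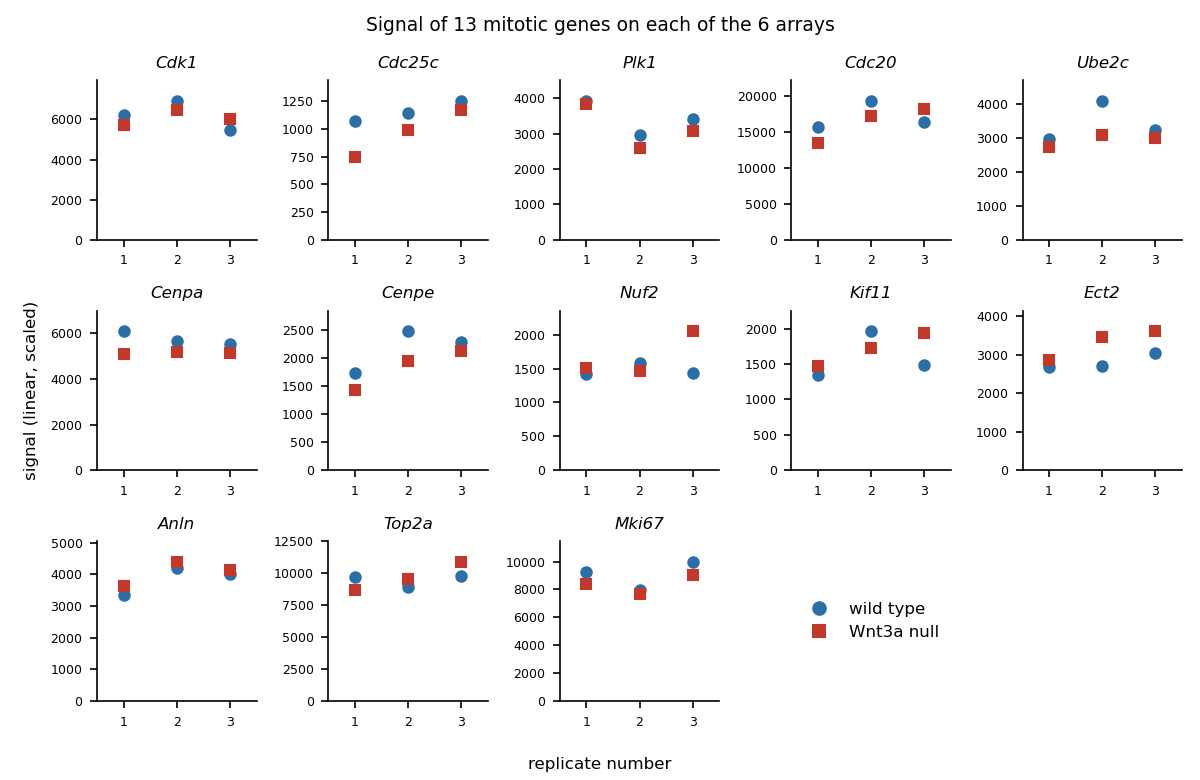
Linear signal (y axis, from 0) of 13 mitotic genes by replicate number (x axis); circles are the wild-type array and squares the Wnt3a null array of that number. Groups overlap in each panel except Cenpa, and for Anln the arrays numbered 1 are the lowest of both genotypes.

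By replicate number, null was below wild type at all 3 numbers in 9 members (27.3%) and above in 2 (6.06%), against 14.7% and 15.5% of all genes and 22.7% and 13.2% of the equally bright ones. The 9 were Cdc25c, Plk1, Mad2l1, Ube2c, Cenpa, Cenpe, Nusap1, Kif23 and Mki67, and the 2 Ect2 and Anln. Arrays of a number tended to deviate together (correlations of 0.448, 0.472 and 0.293 over genes at or above the median signal), so the number was also fitted as a block. With the block, limma's lowest adjusted p among members was 0.806, and with trend and robust options as well it was 0.558, shared by Cenpe and Ect2. These 2 (6.06%) were the members at an unadjusted p under 0.05 in that fit, against 8.79% of all genes. The intervals there were narrower, from -0.48 to -0.01 for Cenpe and from 0.01 to 0.45 for Ect2.

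No other probe set of a member passed the test. The members have 71 probe sets in all, and 22 genes have more than 1. Of the 38 probe sets not chosen, 22 lay at or above the median gene signal, with 10 lower and 12 higher and differences from -0.36 (Ttk) to 0.39 (Bub1). Their sign matched that of the chosen probe set in 12 of 22. The 16 dimmer ones spread from -0.69 (Aurka) to 1.17 (Incenp), and the lowest adjusted p over all probe sets was 0.960 (limma). That was a dim Incenp probe set with 22.4, 22.9 and 25.3 in wild type and 28.7, 67.3 and 76.7 in null pools. Its groups do not overlap and its interval, 0.15 to 2.20, left out 0, unlike those of the other 37 probe sets. This 1 interval is 2.63% of the 38, against 5.17% of all genes with an unadjusted p under 0.05 (limma). The chosen Incenp probe set had -0.07. Groups were also separate, with null lower, for a further probe set of Cdc20 (-0.22) and of Cdca8 (-0.16). Separate groups made up 5.26% of the 38 with null lower and 2.63% with null higher, against 4.56% and 5.56% of all genes. In some genes bright probe sets differed in sign: Ccna2 had 0.01 and -0.16, Prc1 -0.11 and 0.08. In others they shared it: Aurkb had -0.26 and -0.07, Cdca8 -0.02, -0.16 and -0.15, Kif11 0.11, 0.08 and 0.11.

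Many members shared a pattern by replicate number. In 20 of 33 members (60.6%) array 1 was the lowest of 3 in both genotypes. The share was 18.3% of all genes, 23.7% of those at or above the median signal and 29.1% of the equally bright ones. It was 36.5% of 52 other mitosis genes, 39% of 41 DNA replication and G1/S genes and 40% of 30 regulators of the G2 to M step. Array 2 was lowest in both in 2 members and array 3 in 1. Measured from each gene's mean over 6 arrays, the median member stood at -0.11 in wild-type and -0.15 in null pool 1, at 0.12 and 0.00 in pools 2 and at 0.03 and 0.11 in pools 3. In null pool 1, 31 of 33 members lay below their mean, against 60.2% of the equally bright genes, whose median there was -0.06. In wild-type pool 1 it was 22 of 33, against 50.0%.

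The replicate number passed a test for Kif23, Ccnb2 and Mad2l1. Kif23 gave 2357, 3821 and 2594 in wild type and 2297, 3777 and 2586 in null pools, nearly the same 3 values in each genotype. Ccnb2 followed the same course, 3223, 5503 and 3536 against 2879, 4544 and 3609.5. Mad2l1 gave 7238, 9001 and 9655 against 5757, 8942 and 8978, with number 1 low and the others alike. In the block fit with trend and robust options, a test added after the data were seen, the replicate number term passed for these 3 members (limma, adjusted p = 0.0248, 0.0295 and 0.0433), 9.09% of members against 2.47% of all genes. At an unadjusted p under 0.05 it was 14 members (42.4%), against 17.7% of all genes. The comparison shares, 2.47% and 17.7%, are of all genes, and those of the equally bright genes were not counted. Arrays of a number deviated together more in bright genes, with correlations of 0.448, 0.472 and 0.293 at or above the median signal. Over all genes these were 0.0727, 0.0537 and 0.0284. Without trend and robust options limma called 0 genes for the number, with 1 member and 1480 genes at an unadjusted p under 0.05. The 3 calls fell to 0 without wild-type pool 2 or 3 or null pool 2 or 3. They stayed at 3 without either pool 1. Leaving out both arrays of a number gave 1 call without number 1, 0 without number 2 and 2 without number 3. In 8 members number 2 was below number 1 instead, from -0.04 for Cenpa to -0.48 for Plk1, with Aurkb at -0.35 and Tpx2 at -0.26.

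What a number shares is not stated in the labels. The sex composition given above differed at number 1, the ratio of 3' to 5' beta-actin signal, a measure of RNA integrity, was lowest in pool 1 of both genotypes (2.68 and 2.38, against 3.13 to 3.83), as was the Gapdh ratio given above, and 7 of 8 visceral and yolk sac endoderm markers were lowest in array 1 of both. The summed signal of these 8 markers was 34871, 84602 and 45258 in wild-type and 41217, 51477 and 59073 in null pools 1 to 3. All 8 lay above the median gene. Their part in the result was not tested.

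**Figure D4:**
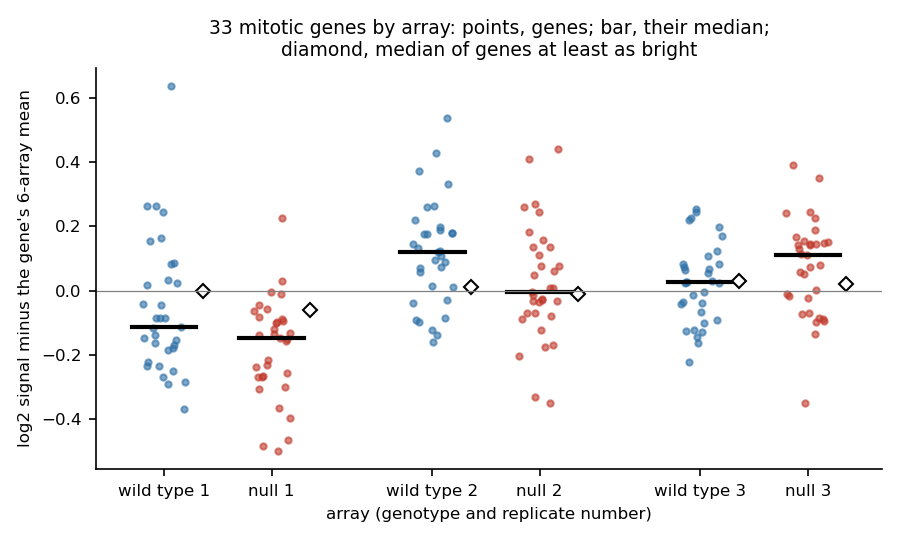
Log2 signal of each of 33 mitotic genes minus its mean over the 6 arrays (y axis), by array; the bar is the members' median and the diamond the median of the 4446 genes at least as bright. Both arrays numbered 1 have their median below 0, at -0.11 and -0.15.

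Neighbouring parts of the cell cycle had no called gene either. Of 52 other measured mitosis genes 30 were lower and 22 higher, with a median log2 difference of -0.02, and of 41 DNA replication and G1/S genes 23 were lower and 18 higher, with a median of -0.01. Neither list had a gene past the test or at an unadjusted p under 0.05. Of the 52 mitosis genes 3 (5.77%) had separate groups, Zw10 with null lower and Melk and Depdc1a with null higher. Of the 41 replication genes 0 were separate with null lower and 3 with null higher, Tyms, Mcm4 and Mcm3. Over all genes the shares were 4.56% lower and 5.56% higher, and of the 4446 equally bright genes 8.64% were separate in either direction. Melk, a mitotic kinase, gave 4381, 4218 and 4392 in wild type and 5328, 5274 and 5232 in null pools. Its difference was 0.29 (interval -0.07 to 0.65; limma, adjusted p = 0.990). Depdc1a differed by 0.29 and the kinesin gene Kif18a by 0.56, and Zw10, a kinetochore gene, by -0.23, the condensin gene Ncapd2 by -0.32 and the motor gene Kifc1 by -0.45. Of the replication genes Tyms, thymidylate synthase, had 0.42, the helicase genes Mcm4 and Mcm3 0.31 and 0.20, and Gmnn, the licensing inhibitor geminin, -0.32, Gins1 -0.26 and Pcna, the polymerase clamp, -0.15.

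Among 30 regulators of the G2 to M step, 13 were lower and 17 higher, with a median of 0.05 and 0 called, and the inhibitors of cyclin-dependent kinases stood at the ends. Cdkn1a, the p21 gene, gave 1382, 1016 and 707 in wild type and 610.4, 384 and 313 in null pools, without overlap, a difference of -1.25 (interval -2.17 to -0.34; limma, adjusted p = 0.832). Cdkn1b, the p27 gene, gave 228, 268 and 187 against 413, 323 and 395, higher in value by 0.74 (interval 0.21 to 1.27; adjusted p = 0.832, limma). Cdkn1c, the p57 gene, gave 1352, 1278 and 1517 against 2001, 1798 and 1794, higher by 0.43 (interval 0.03 to 0.84; adjusted p = 0.95, limma). These 3 of 30 were the list's genes at an unadjusted p under 0.05, against 5.17% of all genes (limma). They were also its genes with separate groups, 1 with null lower and 2 higher, against 4.56% and 5.56% of all genes. Lin9, a DREAM and MuvB subunit, had 0.33, Fzr1, the activator of the anaphase-promoting complex in G1, -0.32 and Nfyc, a subunit of NF-Y, -0.22.

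**Figure D5:**
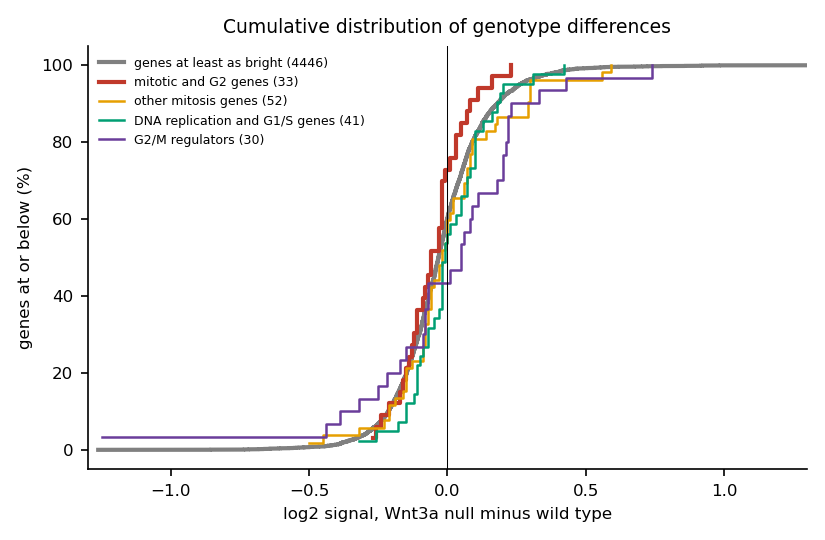
Share of genes (y axis, percent) at or below each log2 difference, null minus wild type (x axis), for the 33 mitotic genes, 3 related lists and the 4446 genes at least as bright as the dimmest member. The mitotic genes span -0.27 to 0.23, and the G2/M regulators reach from -1.25 (Cdkn1a) to 0.74 (Cdkn1b).

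The differences were also set beside the promoter letters. Of the members with a value and a window, the 19 with the CHR letters within 50 bases of the start had a median log2 difference of -0.03 and the 8 without it -0.09. Outside the list, 149 equally bright genes had them there, with a median of -0.02, and 3493 did not, with a median of -0.03. Array 1 was lowest in both genotypes in 31.5% of those 149 genes and in 28.1% of the 3493, against 57.9% and 62.5% of the members with and without the letters.

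Of the marker lists for tissues in or near the dissected region no gene was called. The 8 visceral and yolk sac endoderm markers had a median log2 difference of -0.04, with 6 lower and 2 higher. All 7 measured neural plate markers and all 8 blood and endothelium markers were higher in value in null pools, with medians of 0.59 and 0.77, and 6 of 8 heart markers were higher. Node and primitive streak markers were lower in 11 of 14, with a median of -0.60. Summed signals ran from 5445 to 7523 in null against 3338 to 4197 in wild-type pools for the neural markers, and from 7604 to 8093 against 11472 to 13819 for the streak markers. The streak sum leans on its brightest genes, Cdx2 and Cdx1, with means of 3692 and 2450 in wild type and 2539 and 1021 in null pools. Foxa2 (0.32), Eomes (0.20) and the dim Wnt3 (2.26) were the streak markers higher in null. Heart and blood markers were mostly dim, with 6 of 8 and 7 of 8 below the median gene. The part of tissue make-up in the mitotic values was not tested.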

How the data were processed

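The deposited table holds linear signal intensities of 45101 probe sets on 6 Affymetrix Mouse Genome 430 2.0 arrays. RMA is named in the submitters' processing notes, but the deposited intensities lack its form: they are linear, with the same trimmed mean (500, leaving out 2% at either end) on every array. The sources used here do not give the step that made them. Per the labels' protocols, 30 to 50 ng of RNA of each embryo was amplified in a first cycle, and amplified RNA of 3 embryos (600 ng) was pooled for the second. Amplification and scaling can compress or shift differences, and arrays give no counts, so 3 per genotype limit the precision.

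Signals were turned to log2 without a floor. Of the probe sets, 64 controls were dropped, 34945 of the rest have 1 gene symbol in the platform annotation, and the brightest per gene gave 18193 genes. Null and wild type were compared in R 4.3.3 with limma 3.58.1 (lmFit, eBayes), as two-sided tests at a threshold of 0.05 after Benjamini-Hochberg adjustment across the 18193 genes, with 95% intervals. The code was tested on simulated data. Pairing by replicate number was taken as borne out, since every correlation over genes at or above the median signal exceeded 0.1. Earlier values of this check were known when that bound was set, so it is no independent test. With dim genes counted too, the correlations were 0.0727, 0.0537 and 0.0284, below the bound.

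The members, lists and fits were chosen with earlier results of these data known. Named with all signals were Cdk1, Plk1, Cdc20, Top2a and Mki67 and the 4 members of smallest p in each direction; of the other lists, up to 3 genes per direction with the smallest p at or above the median signal. Kif23, Ccnb2, Mad2l1, Aurkb, the other probe sets and the check genes were chosen after their values were seen, as were the counts by array, the motif search and the test of the replicate number. Alternatives were other probe set choices, a filter, log2(signal + 50), 3 scalings, trend and robust options, array weights, the block, and leaving out arrays or numbers.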

Additional observations from a re-analysis of the deposited data

How the results depend on the processing

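No member was called under any of the 20 alternatives, and the largest absolute log2 difference of a member in a fit on 1 value per gene was 0.43. Over all genes, trend and robust options called 1 lower, and with the replicate block added 9 lower and 2 higher, none of them a member. The replicate block by itself called 0 genes and left the members' median at -0.06.

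The count of members with a higher mean in null, 9, was 3 after median centring, 16 with array weights, 31 of 71 when every probe set counted by itself, and 6 to 22 when arrays or numbers were left out. The members' median was -0.17 after median centring and -0.12 to 0.04 with arrays left out. Median centring moved the other mitosis list to -0.12, the DNA replication list to -0.11 and the G2/M regulators to -0.05; the last had 0.02 after quantile normalization and 0.03 after cyclic loess. With arrays left out these lists ran from -0.06 to 0.06, -0.07 to 0.03 and -0.04 to 0.07.

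Among the 13 members named with all signals, 21 values changed sign, and none was called. By setting, Cdk1 had 0.01 after cyclic loess and 0.02 with array weights. Averaging probe sets gave Top2a -0.12, Cenpa 0.12 and Anln -0.08, and median centring gave Top2a -0.07 and Anln -0.03. With arrays left out the ranges were -0.11 to 0.06 (Cdk1), -0.28 to 0.00 (Plk1), -0.19 to 0.05 (Cdc20), -0.05 to 0.13 (Top2a), -0.01 to 0.30 (Nuf2), -0.03 to 0.27 (Kif11) and -0.02 to 0.15 (Anln). The 3 members called for the replicate number, an alternative set added after seeing the data, were 0 without trend and robust options and 0 to 3 with arrays or numbers left out. The cause of these changes was not tested. Differences inside the intervals, which lay within 1.5-fold for 16 members and within 2-fold for all 33, are not excluded by 3 arrays per genotype. The smallest detectable difference was not computed.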
